A study of Mus musculus with 9 samples.

Results

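The subject is a set of 10 mouse genes of haem and iron handling, measured in whole lung. They break down haem, reduce biliverdin, or take up, store, move or export iron, except Nqo1, which encodes a quinone reductase. The members were chosen by symbol, with earlier results of these data known: Hmox1, Hmox2, Blvra, Blvrb, Nqo1, Fth1, Ftl1, Slc40a1, Tfrc and Slc11a1. All 10 were found among the 25526 names of the deposited expression table, and all 10 passed the filter on low values, which left 14540 genes for testing. The series asked how PepNzymeSOD-CAT, an inhalable self-assembled polypeptide made to act like the enzymes superoxide dismutase and catalase, works in pulmonary fibrosis. RNA was sequenced from the lungs of 3 mice given PepNzymeSOD-CAT (nanozyme), 3 mice with the pulmonary fibrosis model (model) and 3 normal mice (normal). The strain, sex and age of the mice, the inducer of fibrosis, the doses and the day of sampling are not given in the sources used here, nor is it stated whether nanozyme mice received the inducer exactly as model mice did. Per the labels' protocols each library came from 1 mouse. Values are FPKM, that is reads scaled to transcript length and library size, so the levels of different genes in 1 library can be set side by side.

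Haem is degraded by haem oxygenases to carbon monoxide, free iron and biliverdin, and biliverdin reductases turn biliverdin into bilirubin. The freed iron is stored in ferritin, a shell of heavy and light subunits, or leaves the cell through ferroportin, the product of Slc40a1. Iron enters most cells on transferrin through the transferrin receptor, the product of Tfrc. In lung, macrophages take up inhaled iron and dying red cells, and they recycle haem in this way. Slc11a1 encodes a metal pump of the phagosome membrane in macrophages and neutrophils, and Nqo1 encodes a quinone reductase that, like Hmox1 and the ferritin genes, is a known target of the oxidant-responsive transcription factor NRF2.

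Part of the set is also controlled after transcription, by a short RNA hairpin called the iron-responsive element. When iron is scarce, iron regulatory proteins bind the hairpin. In a 5′ UTR this blocks translation, and in a 3′ UTR it protects the mRNA from decay. The hairpins are shown because they separate the members whose mRNA level is known to follow iron itself from those whose control by iron acts on translation, which an mRNA measurement does not see. GENCODE vM21 transcripts (GRCm38) of 21901 protein-coding genes were searched on the transcript strand for a bulged C, 5 bases, CAGTGN and 5 bases pairing with the first 5, with at least 4 of 6 further positions paired below the bulge. The pattern was found in 47 genes (0.215%), among them 4 of the 10 members. Capitals mark the bulged C and the first 5 bases of the loop, and each sequence is 29 bases long.
Fth1, 5′ UTR, chr19:9982732-9982760, plus strand: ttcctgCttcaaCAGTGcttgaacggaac
Ftl1, 5′ UTR, chr7:45459779-45459807, minus strand: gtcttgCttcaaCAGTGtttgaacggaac
Slc40a1, 5′ UTR, chr1:45925465-45925493, minus strand: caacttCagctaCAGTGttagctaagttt
Tfrc, 3′ UTR, chr16:32631219-32631247, plus strand: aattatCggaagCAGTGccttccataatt
Tfrc, 3′ UTR, chr16:32631598-32631626, plus strand: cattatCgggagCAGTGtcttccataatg
Tfrc, 3′ UTR, chr16:32631663-32631691, plus strand: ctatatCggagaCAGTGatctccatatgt
Tfrc, 3′ UTR, chr16:32631710-32631738, plus strand: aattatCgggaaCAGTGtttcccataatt

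The labelled tissue carried its defining markers in every group. The summed level of 8 alveolar type 2 cell markers was 19063 to 31200 FPKM in nanozyme, 10004 to 14013 FPKM in model and 25180 to 31828 FPKM in normal lung, and 0 of the 8 were at 0 in every library. Nanozyme replicate 2 stood apart from the other 2 nanozyme libraries. Along the leading principal component (62.8% of the variance of the tested genes) it lay at 43.3, whereas nanozyme replicates 1 and 3 lay at -14.4 and -9.68, model libraries between 39.5 and 61.2, and normal libraries between -63.5 and -54.8. The tests and calls that involve nanozyme lung are therefore given with and without this library, while counts of members without overlap are given with all libraries. The omission was chosen after this position was seen. Leaving out the nanozyme library nearest to model lung widens the difference from model lung by itself. Calls of nanozyme against model lung without it are therefore descriptions. The labels give no date or batch, so an effect of sequencing or handling that followed the groups cannot be told apart from them.

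Genes of haem breakdown, biliverdin reduction, iron storage, iron export and phagosomal metal transport were higher in model than in normal lung. By limma with Benjamini-Hochberg adjustment, 7 of the 10 members were called higher: Hmox1, Blvra, Blvrb, Fth1, Ftl1, Slc40a1 and Slc11a1. Over all tested genes 17.4% were called higher. The members were chosen with earlier results of these data known, so the shares over all genes are a setting and not a test. No member was called lower (0 of 10, also at an unadjusted p under 0.05), where the share over all genes was 22.7%. The same 7 members did not overlap between model and normal libraries, against 23.5% of all genes that were higher and 34.9% that were lower without overlap. The median change of the 10 members was 1.11 on the log2 scale, beside -0.12 over all genes. All 7 calls held in each of 19 alternative analyses of this comparison.

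Set against model lung, nanozyme lung had lower Hmox1, Slc11a1 and Blvrb values without overlap, while the values of the other 7 members overlapped. With all 9 libraries limma called 0 of 10 members, and 0% of all genes, in either direction. At an unadjusted p under 0.05 there were 3 members, all lower, and 3211 of 14540 genes. Of all genes 5.83% were lower and 10.6% higher without overlap. Without nanozyme replicate 2, which leaves 2 nanozyme libraries, 4 of 10 members were called lower (Hmox1, Slc11a1, Fth1 and Ftl1) and 0 higher, where 9.64% of all genes were called lower and 12.5% higher. As that library was left out for lying near the model libraries, these calls are descriptions and not a further test.

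Against normal lung, nanozyme lung had higher levels of Hmox1, Blvra, Blvrb, Slc40a1 and Slc11a1. These 5 of 10 members were called higher (8.39% of all genes), and 0 were called lower (5.5% of all genes; 0 members at an unadjusted p under 0.05). In 8 of 10 members the nanozyme libraries lay above the normal libraries without overlap, against 22.1% of all genes, and 0 lay below (20.8% of all genes). Without nanozyme replicate 2 the count was 4 of 10, Blvrb no longer passing, where 9.31% of all genes were called higher and 4.26% lower. The calls of Slc40a1 and Slc11a1 held in all 19 alternatives, those of Blvra in 17, Blvrb in 14 and Hmox1 in 10.

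**Figure D1:**
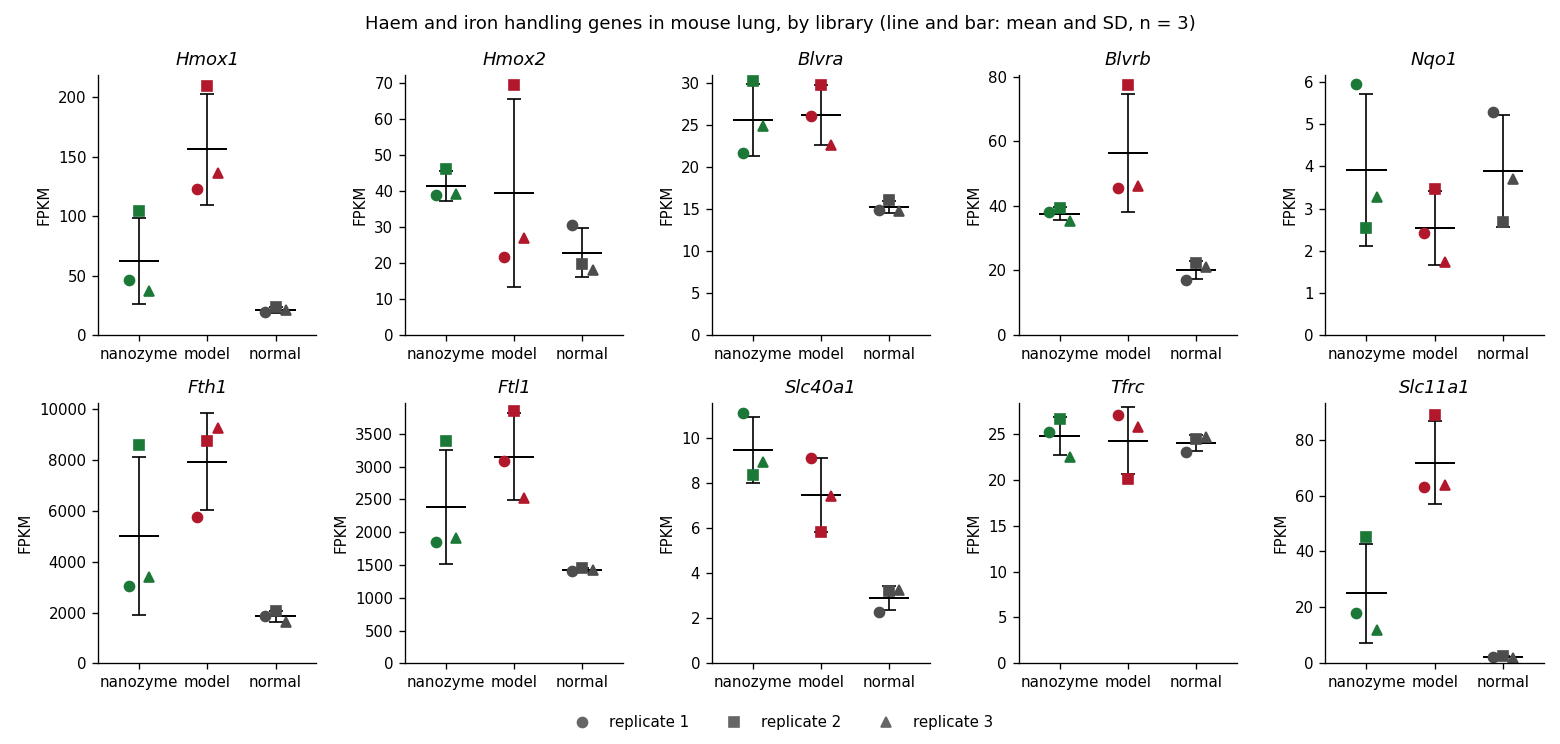
FPKM of each gene in the 9 libraries (y axis from 0), with nanozyme, model and normal groups from left to right, 1 symbol per replicate number, and lines and bars for the group mean and SD (n = 3). Nanozyme replicate 2 (square) lies nearest the model libraries for Hmox1, Fth1, Ftl1 and Slc11a1, whereas for Slc40a1 the 3 nanozyme libraries lie together between 8.33 and 11.1 FPKM.

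Hmox1, the inducible haem oxygenase, was one of the most changed members. It lies on chromosome 8 from 75093621 to 75100589 (GRCm38) and is protein-coding, as are all members. Its level was 46.1, 104 and 37.1 FPKM in nanozyme, 123, 209 and 136 FPKM in model and 19.1, 23.6 and 20.98 FPKM in normal libraries. All 3 groups were separate, with nanozyme between model and normal. Hmox1 was higher in model than in normal lung (log2 change 2.79 ± 0.36 SE, adjusted p = 0.00110), a 7.37-fold difference of mean FPKM. Against model lung the nanozyme change was -1.42 ± 0.36 (adjusted p = 0.181), and without nanozyme replicate 2 it was -1.85 ± 0.23 (adjusted p = 0.00164). Hmox1 was higher in nanozyme than in normal lung (1.37 ± 0.36, adjusted p = 0.0384), and without nanozyme replicate 2 the change was 0.94 ± 0.23 (adjusted p = 0.0342). That last call was lost without nanozyme replicate 1 (adjusted p = 0.0578), model replicate 1 (0.0528), model replicate 3 (0.0551) or any of normal replicates 1, 2 and 3 (0.131, 0.0723 and 0.115).

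Hmox2, the constitutive haem oxygenase, differed from Hmox1 in how its libraries were ordered. It lies on chromosome 16 from 4726361 to 4766742 and overlaps Cdip1 on the other strand. The counting tool and its strand setting are not given in the sources used here, so reads of the overlap may be shared. Hmox2 had 38.8, 46.1 and 39.1 FPKM in nanozyme, 21.7, 69.4 and 27.0 FPKM in model and 30.6, 19.7 and 18.2 FPKM in normal libraries. One model library, replicate 2, was far above the other 2, and the remaining model values fell within the range of the normal ones. Hmox2 did not pass in model compared with normal lung (0.61 ± 0.39, adjusted p = 0.236, 95% interval -0.276 to 1.5003), and without model replicate 2 the change was 0.12 ± 0.22. Against model lung the nanozyme change of Hmox2 was 0.25 ± 0.39 (adjusted p = 0.724), and 0.17 ± 0.45 without nanozyme replicate 2 (adjusted p = 0.822). The nanozyme libraries all lay above the normal libraries, but the change of 0.86 ± 0.39 did not pass (adjusted p = 0.175). It passed without model replicate 2, a library that enters this comparison only through the shared variance (adjusted p = 0.0311), and did not pass without nanozyme replicate 2 (0.78 ± 0.45, adjusted p = 0.307).

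The ratio of the 2 oxygenases within a library does not depend on how that library was scaled. Hmox1 stood at 1.19, 2.26 and 0.949 times Hmox2 in nanozyme, 5.67, 3.02 and 5.03 times in model and 0.623, 1.196 and 1.15 times in normal libraries. Every model library held several times more inducible than constitutive transcript. In normal lung the pair were near parity, and nanozyme replicates 1 and 3 fell within the range of the normal ratios. These ratios are descriptions, and with 3 mice against 3 an exact two-sided permutation test could not give a p below 0.10.

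Both biliverdin reductases were higher in model lung, Blvrb more than Blvra. Blvra (chromosome 2 from 127070665 to 127097084) reduces the main biliverdin isomer of adult haem breakdown and had 21.7, 30.2 and 24.9 FPKM in nanozyme, 26.1, 29.8 and 22.6 FPKM in model and 14.9, 16.1 and 14.8 FPKM in normal libraries. Blvrb (chromosome 7 from 27447978 to 27466144), also known as a flavin reductase that is abundant in red cells, had 38.2, 39.3 and 35.2 FPKM in nanozyme, 45.6, 77.5 and 46.1 FPKM in model and 17.1, 22.4 and 21.2 FPKM in normal libraries. For Blvra the nanozyme and model libraries overlapped fully, and for Blvrb the 3 groups were separate, with little spread among the nanozyme libraries. In model compared with normal lung Blvra rose by 0.73 ± 0.14 (adjusted p = 0.00532) and Blvrb by 1.40 ± 0.20 (adjusted p = 0.00185). Against model lung the nanozyme change of Blvra was -0.04 ± 0.14 (adjusted p = 0.900, 95% interval -0.36 to 0.29) and that of Blvrb was -0.53 ± 0.20 (adjusted p = 0.195). Without nanozyme replicate 2 these were -0.16 ± 0.13 (adjusted p = 0.430) and -0.56 ± 0.24 (adjusted p = 0.130).

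Compared with normal lung, nanozyme lung was higher in Blvra (0.70 ± 0.14, adjusted p = 0.0161) and in Blvrb (0.87 ± 0.20, adjusted p = 0.0272). Leaving out nanozyme replicate 2 gave 0.58 ± 0.13 (adjusted p = 0.0284) and 0.84 ± 0.24 (adjusted p = 0.0561). The Blvra call was lost without normal replicate 1 (adjusted p = 0.0679) or 3 (0.0705). The Blvrb call was also lost without nanozyme replicate 1 (0.0652) or 3 (0.0546) and without normal replicate 1 (0.109) or 3 (0.0822). Red blood cell transcripts went the other way from Blvrb: 8 of them summed to 132 to 791 FPKM in nanozyme, 173 to 320.1 FPKM in model and 3531 to 4255 FPKM in normal libraries.

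The Blvra promoter is shown as the sole member window with a match to the core of the NRF2 binding motif. For 8 members there were promoter windows in the RefSeq table (GRCm38.p6), with 13 windows in all, each from 250 bases before to 50 after a gene start. Hmox1 and Slc40a1 were not among them. TGACNNNGC, searched on both strands, was found in 1 of the 13 windows and in 12.4% of all 32851 windows. The match is a description of the letters and not a bound site. It starts 49 bases before the Blvra start used for this RefSeq window, which is not the start coordinate given above for Blvra. The match is on the opposite strand and is in capitals in the 49 bases printed here.
Blvra, chr2:127070588-127070636, plus strand: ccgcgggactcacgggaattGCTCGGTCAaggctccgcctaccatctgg

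Nqo1, the quinone reductase, was the least expressed member in model and nanozyme lung and did not pass in any comparison. It lies on chromosome 8 from 107388225 to 107403206. Its level was 5.96, 2.54 and 3.27 FPKM in nanozyme, 2.43, 3.47 and 1.74 FPKM in model and 5.29, 2.67 and 3.69 FPKM in normal libraries. All groups overlapped, and the libraries of each group spread widely around low values. The change was -0.46 ± 0.30 in model compared with normal lung (adjusted p = 0.258, 95% interval -1.15 to 0.24) and 0.44 ± 0.30 in nanozyme compared with model lung (adjusted p = 0.405, 0.65 ± 0.31 without nanozyme replicate 2). In nanozyme compared with normal lung it was -0.02 ± 0.30 (0.19 ± 0.31 without nanozyme replicate 2), with a sign that differed between scalings.

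Ferritin transcripts were among the most abundant of the lung in every group. Fth1, the heavy subunit that carries the ferroxidase activity, lies on chromosome 19 from 9980598 to 9985098. The Fth1 mean was above that of 99.97% of tested genes in nanozyme, 99.98% in model and 99.86% in normal lung. Its level was 3053, 8596 and 3403 FPKM in nanozyme, 5749, 8770.0 and 9274 FPKM in model and 1878, 2064 and 1635 FPKM in normal libraries. Nanozyme replicate 2 lay within the model range, and nanozyme replicates 1 and 3 lay between the model and normal ranges. Ftl1, the light subunit that helps iron to form its mineral core, lies on chromosome 7 from 45457944 to 45459884. It had 1850.5, 3393 and 1909.6 FPKM in nanozyme, 3089.6, 3848 and 2521 FPKM in model and 1401, 1457 and 1418 FPKM in normal libraries. Its nanozyme libraries were ordered as for Fth1, with replicate 2 among the model values. Both genes have processed copies elsewhere in the genome, and how reads shared with them were counted is not given in the sources used here. The retrogene Ftl1-ps1, listed on its own, had 11.8 to 37.5 FPKM in nanozyme, 24.9 to 42.3 FPKM in model and 15.5 to 16.4 FPKM in normal libraries. Reads shared with the copies were not measured, so the size of the error in Fth1 and Ftl1 is unknown.

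In model compared with normal lung Fth1 rose by 2.07 ± 0.39 (adjusted p = 0.00490) and Ftl1 by 1.12 ± 0.26 (adjusted p = 0.0112). Nanozyme compared with model lung gave changes of -0.80 ± 0.39 (adjusted p = 0.266) and -0.44 ± 0.26 (adjusted p = 0.343). Without nanozyme replicate 2 they were -1.27 ± 0.25 (adjusted p = 0.0112) and -0.72 ± 0.19 (adjusted p = 0.0350), both past the threshold. Compared with normal lung, nanozyme lung had changes of 1.27 ± 0.39 in Fth1 (adjusted p = 0.0653) and 0.68 ± 0.26 in Ftl1 (adjusted p = 0.121), and neither passed. Leaving out nanozyme replicate 2 gave 0.80 ± 0.25 (adjusted p = 0.0753) and 0.40 ± 0.19 (adjusted p = 0.230). The 2 subunits together took 1.05%, 2.47% and 1.11% of the summed FPKM in nanozyme, 1.92%, 2.43% and 2.66% in model and 0.662%, 0.697% and 0.613% in normal libraries. Fth1 stood at 1.65, 2.53 and 1.78 times Ftl1 in nanozyme, 1.86, 2.28 and 3.68 times in model and 1.34, 1.42 and 1.15 times in normal libraries, so the share of the heavy subunit transcript was higher in all 6 nanozyme and model libraries than in the 3 normal ones.

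**Figure D2:**
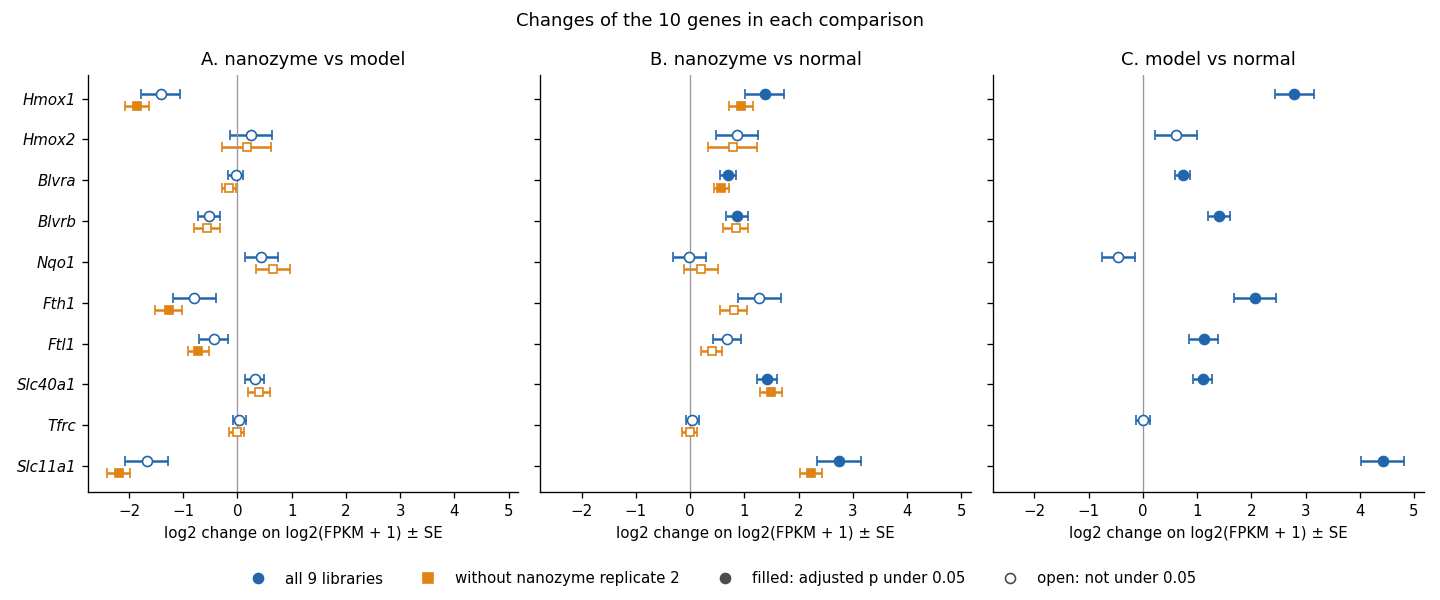
Log2 change ± SE (x axis, on log2(FPKM + 1)) of each gene in nanozyme vs model, nanozyme vs normal and model vs normal lung, with all 9 libraries (circles) and without nanozyme replicate 2 (squares), filled where the adjusted p was under 0.05. Hmox1, Fth1, Ftl1 and Slc11a1 become filled in nanozyme vs model without that library. The circles of Slc40a1, Hmox2 and Tfrc lie right of 0 in all 3 comparisons, and those of Hmox2 and Tfrc are open in each.

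Slc40a1, the iron exporter, was the 1 gene of the 7 called in model lung whose mean was higher in nanozyme than in model lung. It lies on chromosome 1 from 45908068 to 45926523. Its level was 11.1, 8.33 and 8.92 FPKM in nanozyme, 9.08, 5.80 and 7.43 FPKM in model and 2.29, 3.20 and 3.24 FPKM in normal libraries. All nanozyme and model libraries lay above all normal ones, nanozyme and model overlapped, and nanozyme replicate 2 was the lowest nanozyme library where for 8 other members it was the highest. Slc40a1 rose in model compared with normal lung (1.10 ± 0.18, adjusted p = 0.00279) and was higher in nanozyme than in normal lung (1.42 ± 0.18, adjusted p = 0.00236, and 1.495 ± 0.20 with an adjusted p of 0.00348 without nanozyme replicate 2). The change in nanozyme compared with model lung was 0.32 ± 0.18 (adjusted p = 0.320, 95% interval -0.09 to 0.73) and 0.39 ± 0.20 without nanozyme replicate 2 (adjusted p = 0.202). Ferroportin is known in macrophages, and the summed level of 10 alveolar macrophage markers was 706 to 799 FPKM in nanozyme, 629 to 725 FPKM in model and 301 to 306 FPKM in normal libraries. None of the 10 (0 of 10) was at 0 in every library, and Fabp1 was listed at 0 in model replicates 2 and 3. Much of that sum was Chil3 (408 to 539 FPKM in nanozyme, 436 to 576 FPKM in model and 135 to 147 FPKM in normal libraries). The other 9 markers, a split made after the values were seen, summed to 261 to 298 FPKM in nanozyme, 148 to 195 FPKM in model and 154 to 170.2 FPKM in normal libraries, so model and normal overlapped. Much of this smaller sum was Car4 (93.7 to 114 FPKM in nanozyme, 78.8 to 107 in model and 83.0 to 91.3 in normal libraries). Of the 10 markers 4 were called higher and 0 lower in nanozyme than in normal lung (8.39% and 5.5% of all genes). Without nanozyme replicate 2 these counts were 5 and 0 (9.31% and 4.26% of all genes). In model compared with normal lung 2 were higher and 2 lower (17.4% and 22.7% of all genes). The part of these cells in the Slc40a1 result was not tested, and in whole lung a change in cell number and a change in RNA per cell cannot be told apart.

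Tfrc, the transferrin receptor, was level across the groups. It lies on chromosome 16 from 32608920 to 32632794, and its 3′ UTR holds the 4 hairpins printed above. Tfrc had 25.2, 26.6 and 22.5 FPKM in nanozyme, 27.0, 20.1 and 25.7 FPKM in model and 23.003, 24.4 and 24.6 FPKM in normal libraries. The 3 groups overlapped, and model replicate 2, the highest model library for 7 other members, was the lowest for Tfrc. The change was 0.01 ± 0.13 in model compared with normal lung (adjusted p = 0.979, 95% interval -0.28 to 0.29), 0.04 ± 0.13 in nanozyme compared with model lung (adjusted p = 0.882, -0.25 to 0.32) and 0.04 ± 0.13 in nanozyme compared with normal lung (adjusted p = 0.864, -0.25 to 0.33). Without nanozyme replicate 2 both nanozyme changes were -0.01 ± 0.14, and the sign of all 3 changes differed between scalings. Over the same libraries 10 of 10 cell cycle genes were called higher in model than in normal lung (17.4% of all genes).

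The ratio of export to uptake transcripts separated normal lung from both other groups. Slc40a1 stood at 0.440, 0.313 and 0.397 times Tfrc in nanozyme, 0.336, 0.289 and 0.289 times in model and 0.0996, 0.131 and 0.132 times in normal libraries. All 6 nanozyme and model ratios were at 0.289 or above, and all 3 normal ratios were at 0.132 or below. The nanozyme and model ratios overlapped.

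**Figure D3:**
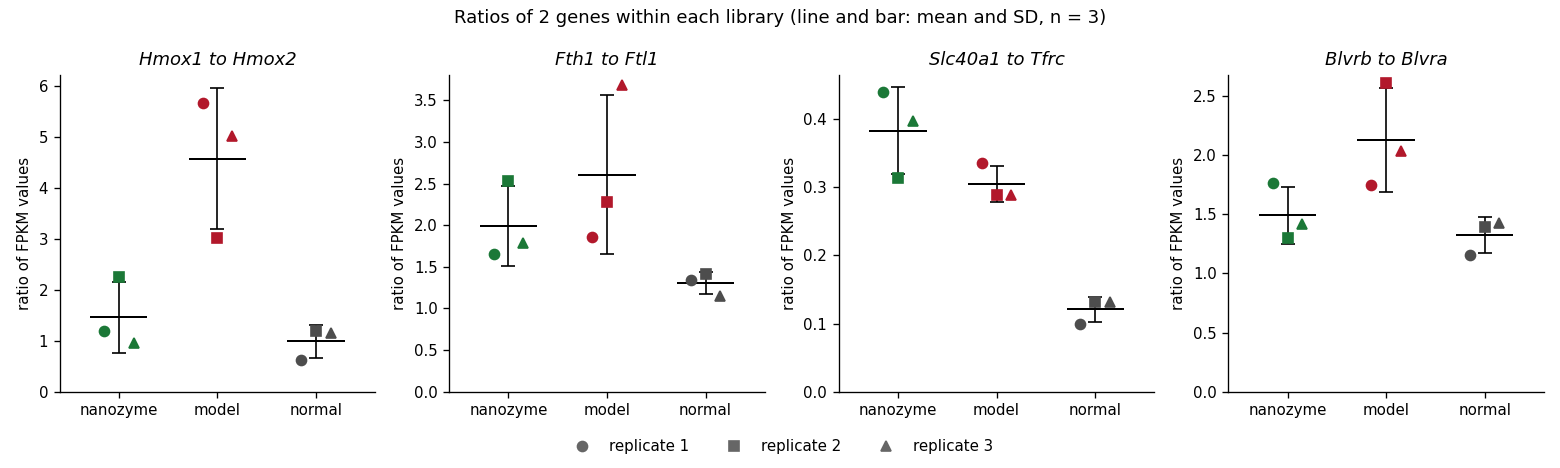
Ratio of FPKM values of 2 genes within each library (y axis from 0, no unit) for Hmox1 to Hmox2, Fth1 to Ftl1, Slc40a1 to Tfrc and Blvrb to Blvra, with nanozyme, model and normal groups from left to right and lines and bars for the mean and SD (n = 3). The Hmox1 to Hmox2 ratio is highest in the model libraries (3.02 to 5.67), and the Slc40a1 to Tfrc ratio is lowest in the normal libraries (0.0996 to 0.132).

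Slc11a1, the phagosomal metal pump, had the largest change of the 10 members. It lies on chromosome 1 from 74375195 to 74386062. Its level was 18.1, 45.1 and 11.99 FPKM in nanozyme, 62.9, 88.8 and 63.7 FPKM in model and 2.43, 2.59 and 2.07 FPKM in normal libraries. The 3 groups were separate, and nanozyme replicate 2 was the nanozyme library nearest to the model range. Slc11a1 rose in model compared with normal lung by 4.42 ± 0.40 (adjusted p = 0.000275), a 30.4-fold difference of mean FPKM. Relative to model lung the nanozyme change was -1.67 ± 0.40 (adjusted p = 0.181), and without nanozyme replicate 2 it was -2.19 ± 0.21 (adjusted p = 0.000606). It was higher in nanozyme than in normal lung (2.75 ± 0.40, adjusted p = 0.00403, and 2.23 ± 0.21 with an adjusted p of 0.000852 without nanozyme replicate 2).

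Markers of phagocytes were also higher in nanozyme and model lung than in normal lung. The summed level of 10 neutrophil markers was 1128 to 3327 FPKM in nanozyme, 2501 to 3234 FPKM in model and 40.1 to 48.6 FPKM in normal libraries. For 10 markers of recruited monocytes and macrophages it was 619 to 1062 FPKM in nanozyme, 1100.1 to 1466 FPKM in model and 155 to 177 FPKM in normal libraries. All 10 neutrophil markers were called higher in both nanozyme and model than in normal lung. Over all genes 8.39% were called higher in nanozyme and 17.4% in model than in normal lung. Of the monocyte and macrophage markers 9 of 10 were called higher in nanozyme and 10 of 10 in model than in normal lung, and 0 markers of either list were at 0 in every library. Without nanozyme replicate 2, 10 of 10 neutrophil and 8 of 10 monocyte and macrophage markers were called higher in nanozyme than in normal lung (9.31% of all genes). In nanozyme compared with model lung 0 of 10 in each list were called with all 9 libraries (0% of all genes). Leaving out nanozyme replicate 2, 8 of 10 in each list were called lower (9.64% of all genes), which is a description. The part of these markers in the Hmox1, ferritin and Slc11a1 results was not tested.

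By level the ferritins led in every group, and the order below them differed between groups. Fth1 was the most abundant and Ftl1 the next in every group. Tfrc ranked 8 of 10 in model lung at 24.3 ± 3.69 FPKM and 3 of 10 in normal lung at 24.0 ± 0.864 FPKM (mean ± SD, n = 3). By mean, Hmox1, Slc11a1, Blvrb, Hmox2 and Blvra were above it in model lung. There the libraries of Tfrc overlapped with those of Hmox2 and of Blvra, so Tfrc did not differ from either beyond their spread. In normal lung each of Tfrc, Hmox2 (22.8 ± 6.77), Hmox1 (21.2 ± 2.25) and Blvrb (20.2 ± 2.78) overlapped with the next in that order, so neighbours did not differ beyond their spread. Slc11a1 ranked 4 of 10 in model lung at 71.8 ± 14.7 FPKM and was last in normal lung at 2.36 ± 0.265 FPKM. Within nanozyme lung the spread was largest for Slc11a1, Fth1 and Hmox1, with SDs of 70.4%, 61.9% and 58.2% of the mean, and smallest for Blvrb at 5.61%.

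The genes nearest to a member in pattern were found by the root mean square distance between log2(FPKM + 1) values over the 9 libraries, each gene centred on its own mean. For Hmox1 they were Slc7a8, Lacc1, Phf11b and Ntng2, at distances of 0.15 to 0.18, and 341 of 13116 named genes lay within 0.5. For Slc11a1 they were Igsf6, Aoah, Slc2a6 and Siglece, at 0.20 to 0.24, with 65 genes within 0.5. For Tfrc they were Zhx2, Fbxl18, Snx30 and Tbc1d22b, at 0.045 to 0.055. Within 0.5 of Tfrc lay 10311 of 13116 named genes, so that distance is too wide to mark a flat pattern. Of all tested genes 17.4% were called higher and 22.7% lower in model compared with normal lung. These distances are descriptions over libraries that share their groups.

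Related genes of haem and iron metabolism, 75 in 7 lists, give the setting of the 10 members. Of 71 that were tested, 20 were called higher in model lung than in normal lung and 11 were called lower (17.4% and 22.7% of all genes), with a median change of 0.05 beside -0.12 over all genes. In nanozyme compared with model lung 0 were called by limma (25 at an unadjusted p under 0.05), and without nanozyme replicate 2 there were 10 higher and 15 lower (12.5% and 9.64% of all genes). In nanozyme compared with normal lung 5 were higher and 4 lower (8.39% and 5.5% of all genes), and without nanozyme replicate 2 there were 8 and 6 (9.31% and 4.26%). For model compared with normal lung, each list count that follows is to be read against 17.4% of all genes higher and 22.7% lower.

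Both genes of the first step of haem synthesis were lower in model lung. They were the 2 called lower of 9 tested genes, a share near the 22.7% of all genes, with 0 called higher and a median change of -0.30. The count was 1 without model replicate 3, normal replicate 1 or normal replicate 2. Alas2, the erythroid form of the first enzyme, whose 5′ UTR is known for an iron-responsive element, had 3.51, 1.06 and 0.297 FPKM in nanozyme, 1.10, 0.378 and 0.589 FPKM in model and 8.16, 9.84 and 8.38 FPKM in normal libraries. It fell in model compared with normal lung (-2.55 ± 0.40, adjusted p = 0.00232) and was lower in nanozyme than in normal lung (-2.09 ± 0.40, adjusted p = 0.0124, and -2.01 ± 0.46 with an adjusted p of 0.0286 without nanozyme replicate 2), together with the red blood cell transcripts given above, whose part in the result was not tested. Alas1, the form used in other tissues, fell by 0.43 ± 0.12 in model compared with normal lung (adjusted p = 0.0185) and was lower in nanozyme than in normal lung (-0.56 ± 0.12, adjusted p = 0.0165, and -0.66 ± 0.10 with an adjusted p of 0.00674 without nanozyme replicate 2).

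Among genes that bind and carry haem, 2 of 11 tested genes were called higher in model lung and 2 lower (median -0.03), shares near those of all genes (17.4% and 22.7%). The lower count was 1 without nanozyme replicate 3, model replicate 2 or 3, or any normal replicate. Hpx, encoding the haem-binding plasma protein haemopexin, had 1.60, 6.50 and 2.22 FPKM in nanozyme, 10.8, 13.5 and 7.32 FPKM in model and 1.48, 2.05 and 1.496 FPKM in normal libraries and rose in model compared with normal lung (2.08 ± 0.38, adjusted p = 0.00405). Its receptor gene Lrp1 rose by 1.29 ± 0.24 (adjusted p = 0.00459) and was also higher in nanozyme than in normal lung (1.08 ± 0.24, adjusted p = 0.0228, and 1.06 ± 0.28 with an adjusted p of 0.0466 without nanozyme replicate 2). The haem-binding membrane protein gene Pgrmc1 fell (-1.22 ± 0.16, adjusted p = 0.00126), as did Slc48a1, the haem transporter of the lysosome (-0.44 ± 0.15, adjusted p = 0.0455).

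Uptake other than by the transferrin receptor held 3 genes that rose in model lung. They were 3 of 11 tested genes, with 0 called lower (median 0.20). Steap4, a metalloreductase, had 20.8, 70.2 and 15.6 FPKM in nanozyme, 57.9, 65.7 and 89.3 FPKM in model and 9.94, 6.23 and 8.25 FPKM in normal libraries. It rose by 2.97 ± 0.48 in model compared with normal lung (adjusted p = 0.00268) and was higher in nanozyme than in normal lung (1.71 ± 0.48, adjusted p = 0.0499, and 1.08 ± 0.24 with an adjusted p of 0.0257 without nanozyme replicate 2). Slc39a14, an importer of zinc and of iron not bound to transferrin, rose by 2.09 ± 0.46 (adjusted p = 0.00843), and Slc25a37, which brings iron into mitochondria, rose by 1.69 ± 0.40 (adjusted p = 0.0118). In all 3 genes nanozyme replicate 2 was far above the other 2 nanozyme libraries and within or just below the model range. Against model lung the nanozyme changes of Steap4, Slc39a14 and Slc25a37 were -1.26 ± 0.48, -1.46 ± 0.46 and -1.32 ± 0.40. None passed (adjusted p of 0.193, 0.182 and 0.182). Without nanozyme replicate 2 they were -1.90 ± 0.24, -2.08 ± 0.20 and -1.87 ± 0.14 (adjusted p of 0.00183, 0.000601 and 0.000371), which are descriptions.

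Storage partners and iron-binding defence proteins held the largest change of the related genes. Of 7 tested genes 4 were called higher in model lung and 0 lower (median 0.36). Lcn2, which binds bacterial iron carriers and is made by neutrophils and epithelium, had 257, 3526 and 469.6 FPKM in nanozyme, 3887, 5412 and 3969 FPKM in model and 76.7, 72.0 and 72.8 FPKM in normal libraries. It rose by 5.87 ± 0.80 in model compared with normal lung (adjusted p = 0.00141) and was higher in nanozyme than in normal lung (3.33 ± 0.80, adjusted p = 0.0290, and 2.22 ± 0.26 with an adjusted p of 0.0019 without nanozyme replicate 2). Ceruloplasmin, the ferroxidase encoded by Cp, rose in model compared with normal lung (1.49 ± 0.37, adjusted p = 0.0134), as did Ncoa4, which delivers ferritin to lysosomes (0.57 ± 0.14, adjusted p = 0.0118), and the iron chaperone gene Pcbp1 (0.27 ± 0.09, adjusted p = 0.0474).

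Among regulators of iron and of the haem response, 4 of 13 tested genes were called higher in model lung and 3 lower (median 0.08), beside 17.4% and 22.7% of all genes. The higher count was 2 with any normal replicate left out, and the lower count was 0 without normal replicate 1 or 3 and 1 without normal replicate 2. Hif1a, the oxygen-sensing factor that also controls iron genes, rose by 1.44 ± 0.23 (adjusted p = 0.00262), whereas Epas1, its relative, fell by 1.06 ± 0.28 (adjusted p = 0.0186). Epas1 is abundant in endothelium, and 7 lung endothelial markers summed to 531 to 856 FPKM in nanozyme, 276 to 596 FPKM in model and 674 to 781 FPKM in normal libraries, with 0 of the 7 at 0 in every library. Against normal lung, 1 of them was called lower in model lung (22.7% of all genes) and 6 of 7 lay lower without overlap (34.9% of all genes). The part of these markers in the Epas1 result was not tested. Fbxl5, the iron-sensing subunit that marks an iron regulatory protein for breakdown, rose by 1.21 ± 0.28 (adjusted p = 0.0113), and Bach1, the haem-binding repressor of Hmox1, rose by 0.56 ± 0.15 (adjusted p = 0.0195). The mRNAs of the iron regulatory proteins themselves did not pass: the change in model compared with normal lung was 0.08 ± 0.10 for Aco1 (adjusted p = 0.574) and -0.21 ± 0.09 for Ireb2 (adjusted p = 0.0913), both chosen after their values were seen, for their role in binding the printed hairpins.

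Iron-sulfur cluster assembly uses iron in mitochondria. Of its 10 genes 2 were called lower in model lung and 0 higher (median -0.17), a share near the 22.7% of all genes called lower. They were Isca1 (-0.70 ± 0.10, adjusted p = 0.00188) and Glrx5 (-0.44 ± 0.13, adjusted p = 0.0251), both factors that form or hand over clusters in mitochondria, and the count was 1 with any normal replicate left out. Of 10 NRF2 targets other than the members 7 were called higher and 2 lower (median 0.50), beside 17.4% and 22.7% of all genes. The higher count was 4 without model replicate 1, model replicate 2 or normal replicate 1 and 3 without normal replicate 2 or 3. The lower count was 1 with any model or normal replicate left out. Slc7a11, the cystine importer, had 0.436, 11.8 and 0.919 FPKM in nanozyme, 12.3, 17.8 and 14.9 FPKM in model and 0.360, 0.169 and 0.274 FPKM in normal libraries and rose by 3.64 ± 0.70 in model compared with normal lung (adjusted p = 0.00499). G6pdx, which supplies NADPH, rose by 1.33 ± 0.15 (adjusted p = 0.000681) and Osgin1 by 0.69 ± 0.17 (adjusted p = 0.0120), while the malic enzyme gene Me1 fell by 0.90 ± 0.20 (adjusted p = 0.00929).

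**Figure D4:**
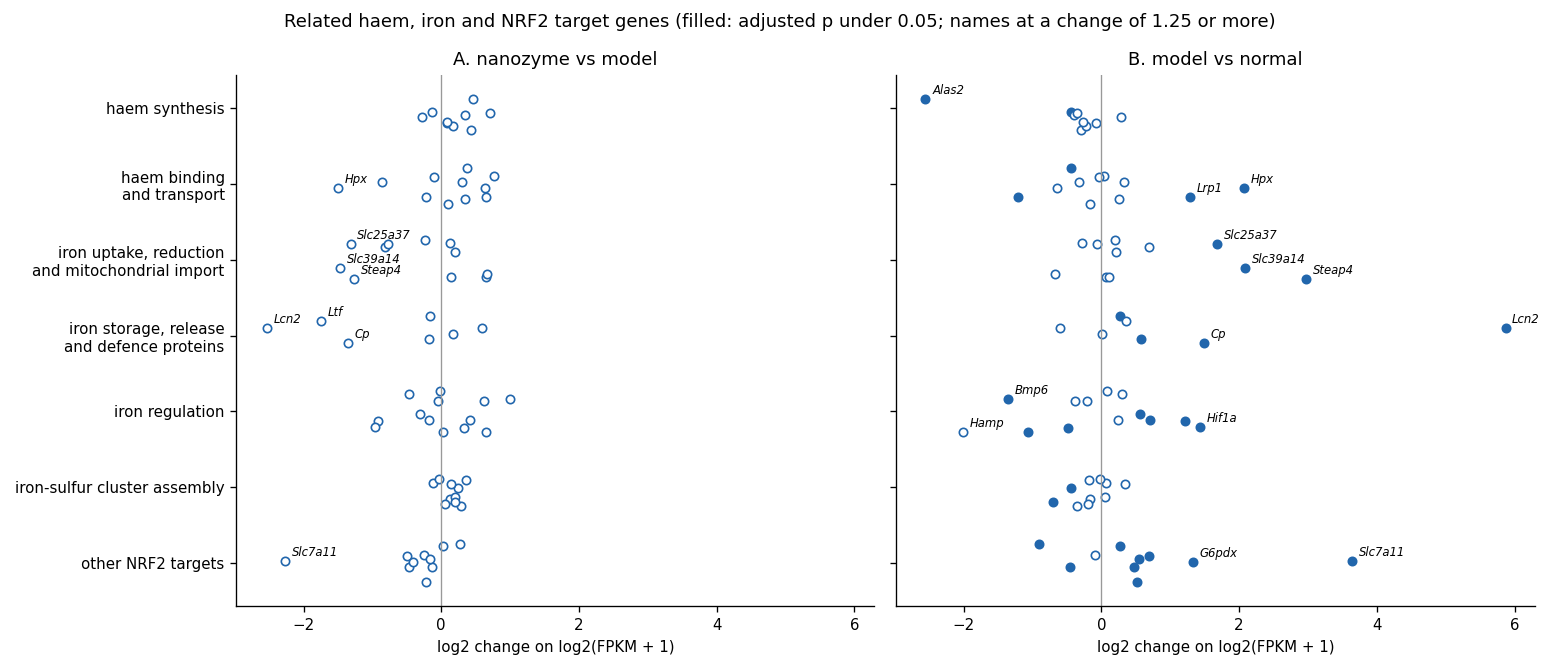
Log2 change (x axis, on log2(FPKM + 1)) of 71 tested related genes in 7 lists (rows) in nanozyme vs model and model vs normal lung, each point 1 gene, filled where the adjusted p was under 0.05. No point is filled in nanozyme vs model, and in model vs normal the point farthest right is Lcn2 at 5.87 and the one farthest left is Alas2 at -2.55.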

How the data were processed

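Whole lungs of 9 mice in 3 groups of 3 were profiled by poly(A)-selected RNA sequencing. HISAT2 and the GRCm38 build are named in the submitters' processing notes. The authors deposited 1 table of FPKM values with 1 column per library. The annotation, counting tool, strand setting and filters are not given in the sources used here. The values of 1 library summed to between 443746 and 519772 FPKM. Whole reads could not be recovered from low values: among genes below 0.1 FPKM, ratios between libraries did not fall on steps (at most 9.57% in the fullest bin, 36 pairs). Sequencing depth is therefore unknown.

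Genes with an FPKM of at least 1 in at least 3 of 9 libraries were tested on log2(FPKM + 1) with limma 3.58.1 (R 4.3.3), 1 coefficient per group, all 9 libraries in 1 fit, empirical Bayes with an intensity trend, two-sided, Benjamini-Hochberg at 0.05 over all 14540 genes of each comparison. Log2 changes on this scale understate low genes. Values are mean ± SD or log2 change ± SE, and p-values measure the spread between mice. The fit was tested on simulated data with 200 changed genes of 14540. It recovered 57.5% to 60% of log2 changes of 1 and 88.5% to 91% of changes of 2, with 7 to 14 false calls. Figures used matplotlib 3.10.9 (Python 3.11.15).

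The members, the lists of related genes and the markers were chosen with earlier results of these data known. Named genes are the 10 members, per list up to 4 called in model vs normal by adjusted p, and the 4 nearest in pattern to Hmox1, Slc11a1 and Tfrc, leaving out predicted genes and names for new genes. Aco1, Ireb2 and genes of the closing section were chosen after their values were seen. Alternatives were a pseudocount of 0.1, no filter, a mean FPKM of at least 5, 4 other scalings, the 2 groups compared only, no trend, a replicate block and each library left out. Where 1 library of a group is left out, the remaining 2 are assumed to vary like the other groups. Comparisons share libraries and are not independent of each other.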

Additional observations from a re-analysis of the deposited data

How the results depend on the processing

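All counts over the 10 members stayed within 1.5 times under the 10 alternatives that keep every library. With 1 library left out in turn, members called higher in model vs normal stayed at 7 (lowest and highest), and none was lower. In nanozyme vs model the count called lower ran from 0 to 4, the 4 being without nanozyme replicate 2. In nanozyme vs normal the count called higher ran from 2 to 6, with 3 without nanozyme replicate 1 and 2 without normal replicate 1 or 3. Signs reversed for members that were not called, and the cause was not tested. Tfrc in model vs normal was -0.12 with sums without the 100 most abundant genes and -0.016 with quantile normalization, and -0.075 to 0.13 with a library left out. Tfrc in nanozyme vs model was -0.078 with median-of-ratios scaling and -0.089 to 0.12 with a library left out, and in nanozyme vs normal -0.051, -0.0063 (the same 2 settings as in model vs normal) and -0.0099 to 0.11. Nqo1 in nanozyme vs normal was 0.037 with equal column sums, 0.0048 with median-of-ratios scaling and -0.30 to 0.19 with a library left out. With a library left out, Blvra in nanozyme vs model ran from -0.16 to 0.074 and Hmox2 from -0.074 to 0.74. Hmox1 in nanozyme vs normal also missed with no filter (adjusted p = 0.0595), median-of-ratios scaling (0.0505) and 2 groups only (0.0625), Fth1 there passed with equal column sums (0.0477), and Hmox2 with 2 groups only (0.0442).

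Median-of-ratios scaling moved the median of all genes by 0.13 in model vs normal and -0.11 in nanozyme vs model, and sums without the 100 most abundant genes by -0.12 in model vs normal. The higher share of all calls in model vs normal was 43.4%, against 54.2% with equal sums, 55.3% with median-of-ratios scaling and 32.9% without the 100 most abundant genes. In nanozyme vs normal it was 60.4%, against 70.4%, 60.9% and 47.3% there and 46.8% with quantile normalization. Over all genes the lower count in model vs normal was 3299, against 2152 at a mean FPKM of at least 5, and 1920 (without normal replicate 3) to 3836 (without nanozyme replicate 2) with a library left out. In nanozyme vs normal 1220 were higher and 800 lower, against 807 and 478 at that mean, 1306 lower with quantile normalization, and 600 to 1353 higher and 148 to 917 lower with a library left out. In nanozyme vs model 0 were called, against 1 higher and 3 lower with no filter and up to 1814 higher and 1402 lower without nanozyme replicate 2. Of the counts over related lists, 682 stayed within 1.5 times of the count reported or at 0, and the rest did not (54 with another nonzero count, 27 with a count where 0 was reported, and 35 at 0).

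Pairing of the mice by replicate number was not assumed. Deviations of same-numbered libraries correlated across genes at 0.086 to 0.23 in nanozyme vs model and -0.33 to 0.058 in the other comparisons. In nanozyme vs model 4 of 6 libraries, and in the other comparisons 0 of 6, correlated best with their own number. These values do not settle whether replicate numbers pair mice in nanozyme vs model. With the replicate block 7 members were called higher in model vs normal, 5 in nanozyme vs normal and 0 in nanozyme vs model, and 0 lower in each. Over all genes the block gave 2402 higher and 3226 lower in model vs normal, 1117 and 617 in nanozyme vs normal, and 0 in nanozyme vs model. Depth is unknown, so no floor for low genes such as Nqo1 can be given.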

Other observations

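Some related genes shared part of the pattern of Slc40a1, with nanozyme libraries above normal ones and nanozyme replicate 2 not above the other nanozyme libraries. They were picked after their values were seen. Cd163, the macrophage receptor for haemoglobin bound to haptoglobin, had 3.59, 1.98 and 3.59 FPKM in nanozyme, 2.43, 0.764 and 1.08 FPKM in model and 1.29, 1.41 and 1.07 FPKM in normal libraries. Its change in nanozyme compared with normal lung was 0.82 ± 0.27 (adjusted p = 0.0770), and without nanozyme replicate 2 it was 1.03 ± 0.26 (adjusted p = 0.0413). Unlike Slc40a1, Cd163 overlapped between model and normal libraries, with a change of 0.05 ± 0.27 (adjusted p = 0.908). Spic, a transcription factor of iron-recycling macrophages that is known to act on Slc40a1, had 2.34, 0.814 and 1.56 FPKM in nanozyme, 0.806, 1.24 and 0.626 FPKM in model and 0.144, 0.189 and 0.121 FPKM in normal libraries. It was higher in nanozyme than in normal lung (1.12 ± 0.23, adjusted p = 0.0166, and 1.35 ± 0.19 with an adjusted p of 0.00387 without nanozyme replicate 2) and in model than in normal lung (0.70 ± 0.23, adjusted p = 0.0392). Both genes have low values, for which the log2(FPKM + 1) scale understates changes. Hp, encoding haptoglobin, went the other way: it had 616, 1676 and 914 FPKM in nanozyme, 1923, 1898 and 1559 FPKM in model and 1301, 1556 and 1417 FPKM in normal libraries, and the nanozyme change against normal lung was -0.53 ± 0.32 (adjusted p = 0.304), and -0.92 ± 0.20 without nanozyme replicate 2 (adjusted p = 0.0260).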
